A study of Mus musculus with 6 samples.

Results

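The 10 genes described here are Nnt and 9 enzymes that remove hydrogen peroxide or recharge the enzymes that do: Gsr, Gpx1, Gpx3, Gpx4, Prdx3, Prdx4, Txnrd2, Txnrd3 and Cat. They were taken by symbol, as the probe sets whose platform annotation gives one of these symbols and no other, and they are 10 of the 18193 genes with such a probe set on the array. They have 23 probe sets, of which 19 passed the filter on dim signal (at least 2 of the 6 arrays above the 40th percentile of their own array), with at least 1 for each gene. The genes were chosen by their intensities in these same 6 arrays, seen by strain, so their strain values are given as a description and no p-value is attached to them.

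Testis RNA came from mice aged 8 weeks, for which the labels give no treatment. Each of 3 inbred strains gave 2 mice, and each mouse 1 array: C57BL/6, AKR/N, and MRL/MpJ+/+. MRL/MpJ+/+ is the MRL strain with the normal allele at the Fas locus, as opposed to its lpr substrain. The labels name no C57BL/6 substrain. Values are linear intensities of probe sets. As deposited, every array has a trimmed mean of 125.001 units, and array medians ran from 28.02 to 30.71. In whole testis, fewer cells of a type and less RNA per cell cannot be told apart. Across the 29692 tested probe sets, log2 values of arrays of the same strain correlated at 0.980 to 0.985, and at 0.960 to 0.974 across strains. These correlations are over probe sets, which are no replicates.

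Hydrogen peroxide in cells is reduced to water by catalase, by glutathione peroxidases, which spend glutathione, and by peroxiredoxins, which spend thioredoxin. Glutathione reductase and the thioredoxin reductases restore glutathione and thioredoxin with NADPH, and in mitochondria a large part of that NADPH comes from Nnt, the proton-driven transhydrogenase of the inner membrane. Some C57BL/6 substrains carry a deletion within Nnt. In the testis Gpx4 has a second life as a structural protein of the sperm midpiece, and Txnrd3, a thioredoxin reductase with a glutaredoxin domain, is found mainly in that organ.

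Nnt and Gpx1 were lower in C57BL/6 than in both other strains, and Gpx3 was highest in AKR/N. No difference of the other 7 genes was called (the rule is given with the counts), although the arrays of some strains did not overlap for Gsr, Gpx4, Prdx4 and Cat. The plot of intensities by array shows all 10.

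**Figure D1:**
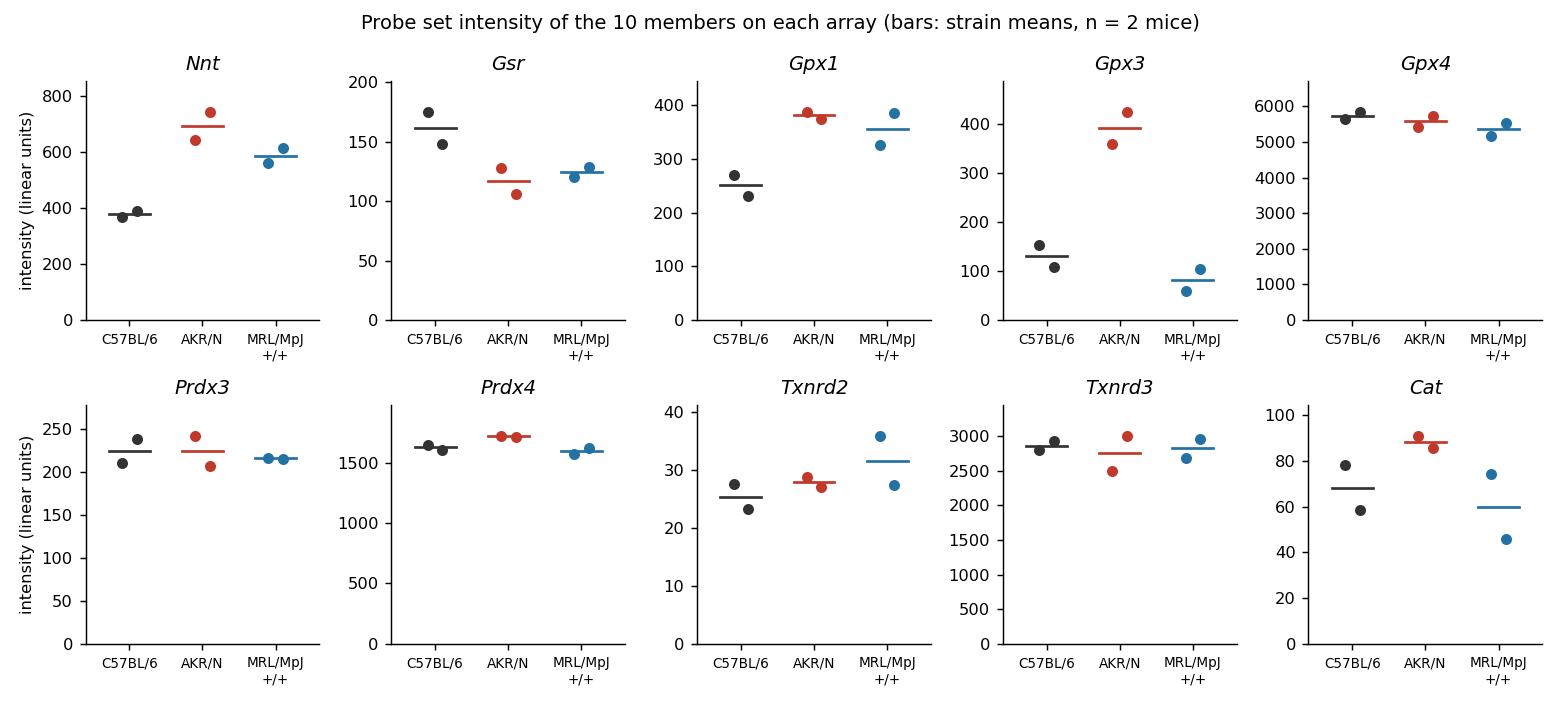
Linear probe set intensity (vertical axes, starting at 0) of the 10 genes on each array, with points for the 2 mice of each strain and short bars for strain means; each gene is shown by the brightest of its tested probe sets. C57BL/6 lies below both other strains for Nnt and Gpx1, AKR/N above both for Gpx3, and strain means of Gpx4, Prdx3, Prdx4 and Txnrd3 are nearly level.

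The RefSeq promoter table used here gives windows for 8 of the 10 genes, on GRCm38.p6, an assembly of C57BL/6J. The 250 bases before the RefSeq start of Gpx3 and Gpx1, the genes with strain differences among those 8, are shown as the reference sequence that strain values can be set beside. Capitals mark matches to CCAAT (a capitalised ATTGG is a match on the opposite strand) and to GGGCGG; both strands were searched, and also for TATAAA and for the antioxidant response core TGACNNNGC.

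Gpx3, chr11:54902604-54902853, plus strand: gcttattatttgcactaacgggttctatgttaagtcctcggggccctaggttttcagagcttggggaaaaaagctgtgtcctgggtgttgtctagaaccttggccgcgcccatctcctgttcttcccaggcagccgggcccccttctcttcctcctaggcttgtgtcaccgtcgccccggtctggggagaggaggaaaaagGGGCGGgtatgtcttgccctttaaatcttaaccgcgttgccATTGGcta

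Gpx1, chr9:108338830-108339079, plus strand: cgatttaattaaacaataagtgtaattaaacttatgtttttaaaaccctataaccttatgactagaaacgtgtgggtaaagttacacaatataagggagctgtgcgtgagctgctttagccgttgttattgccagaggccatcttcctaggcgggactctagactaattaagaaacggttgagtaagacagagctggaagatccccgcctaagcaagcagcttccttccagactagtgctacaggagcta

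The Gpx3 window held 1 CCAAT match, which begins 8 bases before the start, and 1 GGGCGG match, which begins 49 bases before it. The Gpx1 window held neither. Across all 32851 windows of the same length, 33.9% held CCAAT and 32.7% held GGGCGG. The core TGACNNNGC was in 10.2% of all windows and in none of the 11 windows of these 8 genes, of which Gpx4 has 4, and TATAAA, in 12.4% of all windows, was in that of Prdx3. A match is a run of letters only, and its absence says nothing of the factor.

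Nnt was read by 2 tested probe sets. The brighter one, 1416105_at, stood at 369 and 391 units in the C57BL/6 mice, at 645 and 743 in AKR/N and at 560 and 615 in MRL/MpJ+/+. No C57BL/6 value overlapped those of the other strains, and the MRL/MpJ+/+ values lay between those of C57BL/6 and AKR/N. The C57BL/6 mean was 59.3% of the mean of the other 4 arrays. On the log2(intensity + 16) scale, on which all differences below are given, AKR/N exceeded C57BL/6 by 0.84 (SE 0.0926, n = 2 mice per strain) and MRL/MpJ+/+ exceeded it by 0.61 (SE 0.0926). MRL/MpJ+/+ and AKR/N differed by -0.23 (SE 0.0926), with arrays that did not overlap on this probe set but did on the other.

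The second Nnt probe set, 1456573_x_at, stood at 329 and 314 units in C57BL/6, 640 and 673 in AKR/N and 647 and 547 in MRL/MpJ+/+. There C57BL/6 was at 51.3% of the mean of the other arrays, and the differences were 0.99 for AKR/N and 0.86 for MRL/MpJ+/+ (SE 0.0938 each). The 2 probe sets correlated at 0.945 over the 6 arrays, which is a description over 3 strains and not a test. One more probe set, 1432608_at, was between 3.52 and 12.7 units on every array and failed the filter. Signal in C57BL/6 was lower than in the other strains but far above the 40th percentile of its arrays, 19.1 and 20.8 units. Which exons these probe sets read was not analysed here, so they do not check whether these mice carry the deletion.

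Of the 4 nearest genes to Nnt in RefSeq order with a tested probe set, none was called higher in both strains. Paip1, a partner of the poly(A)-binding protein, stood at 167 and 172 units in C57BL/6, 155 and 140 in AKR/N and 198 and 161 in MRL/MpJ+/+ (adjusted p = 0.41 and 0.781 for AKR/N and MRL/MpJ+/+ against C57BL/6, limma). The next gene on that side, 4833420G17Rik, lay between 294 and 366 units on all arrays. On the other side Fgf10, a fibroblast growth factor, was dim, at 23.1 and 29.7 units in C57BL/6, 35.9 and 31.9 in AKR/N and 33.3 and 31.5 in MRL/MpJ+/+. Its C57BL/6 arrays were the lowest, as for Nnt, but the differences of 0.24 and 0.20 were not called (SE 0.204, limma's adjusted p = 0.535 and 0.616). The second gene on that side with a tested probe set, 1700003P14Rik, ran the opposite way to Nnt. It stood at 225 and 205 units in C57BL/6, 69.9 and 55.7 in AKR/N and 48.6 and 53.5 in MRL/MpJ+/+. It fell in AKR/N and in MRL/MpJ+/+, with differences of -1.56 and -1.79 (adjusted p = 6.4e-05 and 2.5e-05).

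**Figure D2:**
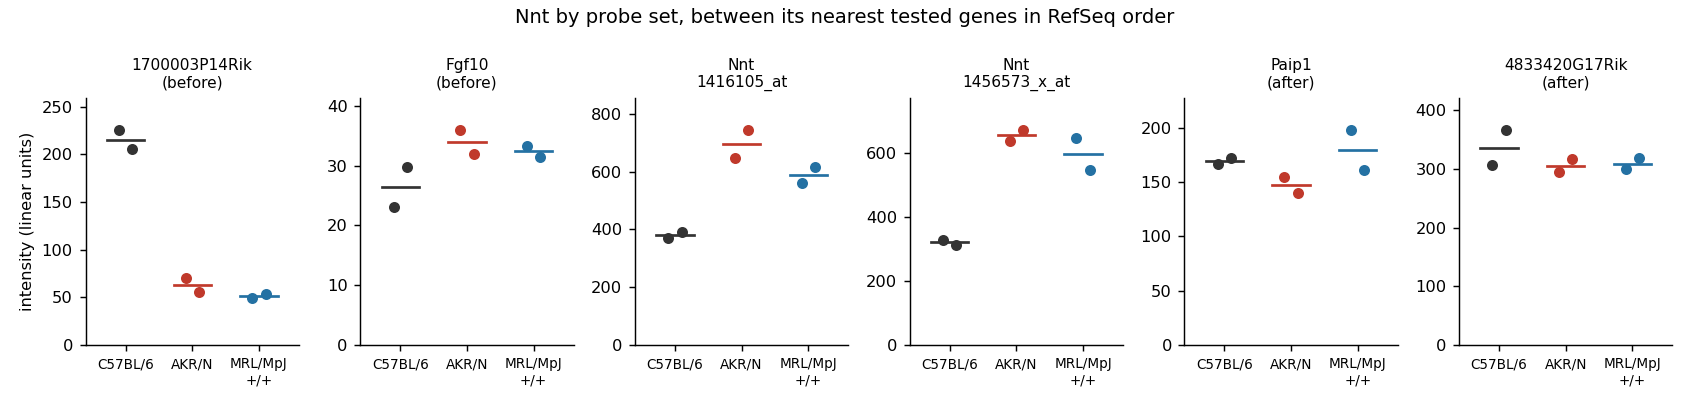
Linear intensity of both tested Nnt probe sets (middle panels) and of the 2 nearest genes with a tested probe set on each side, with points for single mice and bars for strain means. C57BL/6 is lowest on both Nnt probe sets and highest for 1700003P14Rik, while Paip1, 4833420G17Rik and Fgf10 have no called difference.

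Among 1885 other genes whose brightest tested probe set spanned at least 1 on the log2 scale over the 6 arrays, those most like Nnt by Pearson correlation were Klk1 (0.994), Gnmt (0.993), Msmo1 (0.989), Depdc1b (0.988) and Arg2 (0.987). Klk1, a kallikrein protease, averaged 72.6 units in C57BL/6, 134 in MRL/MpJ+/+ and 189 in AKR/N. Msmo1, an enzyme of cholesterol synthesis, averaged 101, 207 and 236 units in the same order, and Arg2, the mitochondrial arginase, 17.4, 102 and 192. All 5 had the order C57BL/6, MRL/MpJ+/+, AKR/N in their strain means, which follows from picking them by likeness to Nnt. Gnmt and Arg2 lay below the 40th percentile of both C57BL/6 arrays and passed the filter only through the other strains. These correlations rest on 6 arrays in 3 strains and are a description.

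Gsr, glutathione reductase, which uses NADPH to restore glutathione, ran in the other direction to Nnt on its brighter probe set. It stood at 175 and 148 units in C57BL/6, 128 and 106 in AKR/N and 120 and 129 in MRL/MpJ+/+. C57BL/6 did not overlap either strain, and the differences were -0.42 for AKR/N and -0.33 for MRL/MpJ+/+ (SE 0.132 each), neither of which was called. The second Gsr probe set did not follow it: it stood at 51.9 and 89.5 units in the C57BL/6 mice, a range that held all 4 other arrays, and the 2 probe sets correlated at -0.08 over the arrays.

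Gpx1, the main glutathione peroxidase of cytosol and mitochondria, was read by 1 probe set. It stood at 270 and 231 units in C57BL/6, 387 and 375 in AKR/N and 326 and 384 in MRL/MpJ+/+. C57BL/6 was below all other arrays, and AKR/N and MRL/MpJ+/+ overlapped. AKR/N exceeded C57BL/6 by 0.58 and MRL/MpJ+/+ exceeded it by 0.48 (SE 0.109 each). Without C57BL/6 replicate 2, the lower of the pair, these differences were 0.47 and 0.37 and neither was called. Without the variance trend in the fit neither was called either. The call was also lost without AKR/N replicate 1 (0.55) for AKR/N and without MRL/MpJ+/+ replicate 2 (0.36) for MRL/MpJ+/+.

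Gpx3, a secreted glutathione peroxidase found in plasma and, in the male tract, abundantly in the epididymis, had the widest range of the 10 genes. It stood at 359 and 425 units in AKR/N, 153 and 108 in C57BL/6 and 59.8 and 103 in MRL/MpJ+/+. Both AKR/N values lay above every other array, and the C57BL/6 values lay just above those of MRL/MpJ+/+. AKR/N exceeded C57BL/6 by 1.49 and MRL/MpJ+/+ fell short of AKR/N, at -2.10 (SE 0.207 each). The difference between MRL/MpJ+/+ and C57BL/6, -0.60 (SE 0.207), was not called. It ranged from -0.27 without MRL/MpJ+/+ replicate 1 to -0.93 without MRL/MpJ+/+ replicate 2.

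Markers of tissues that dissection can carry along were set beside Gpx3. Of the 6 epididymis markers with a probe set, 3 were high on AKR/N replicate 1 and 3 were not. Gpx5, the epididymal glutathione peroxidase, was at 393 units on that array, 16.9 on AKR/N replicate 2 and 13.7 to 42.8 on the C57BL/6 and MRL/MpJ+/+ arrays. Lcn5 was at 118 units on AKR/N replicate 1 against 1.61 to 14.9 elsewhere, and Adam7 at 63.4 against 0.616 to 13.1. The others ran differently: Rnase10 was at 68.8 and 78.0 units in C57BL/6, 12.5 on AKR/N replicate 1 and 4.84 to 15.6 on the remaining arrays, and AKR/N replicate 1 was the lowest array for Lcn8 (3.36 units against 5.47 to 28.8) and Defb1 (3.65 against 10.7 to 29.3). The summed epididymis markers were 594 and 73.2 units in AKR/N, 117 to 195 in C57BL/6 and 63.8 to 75.4 in MRL/MpJ+/+. Without AKR/N replicate 1, where Gpx3 was the lower of its pair, the Gpx3 difference from C57BL/6 was 1.61. The part of epididymal RNA in the Gpx3 difference was not tested.

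Of the 5 adipose markers with a probe set, Fabp4 and Car3 were higher on both AKR/N arrays than in C57BL/6, where they lay below the 40th percentile. Fabp4, the fatty acid binding protein of fat cells, was at 172 and 49.5 units in AKR/N, 12.4 and 2.09 in C57BL/6 and 49.9 and 40.5 in MRL/MpJ+/+, and Car3 was at 192 and 64.8 in AKR/N against 16.5 and 17.8 in C57BL/6. Lpl, at 45.0 and 48.1 units in AKR/N and 48.6 and 33.3 in C57BL/6, overlapped between these strains, and Lep was at 1.43 to 14.4 on all arrays. The 5 together summed to 312 to 593 units in AKR/N, 198 to 228 in C57BL/6 and 259 to 279 in MRL/MpJ+/+, while Adipoq, a defining marker, differed by 0.18 between AKR/N and C57BL/6 (adjusted p = 0.431). Among Sertoli cell markers 3 of 9 rose in AKR/N against C57BL/6 and none fell. Their sum was 6887 to 7117 units in AKR/N, 5780 to 5943 in C57BL/6 and 5904 to 6023 in MRL/MpJ+/+. The part of adipose and Sertoli RNA in the Gpx3 difference was not tested.

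**Figure D3:**
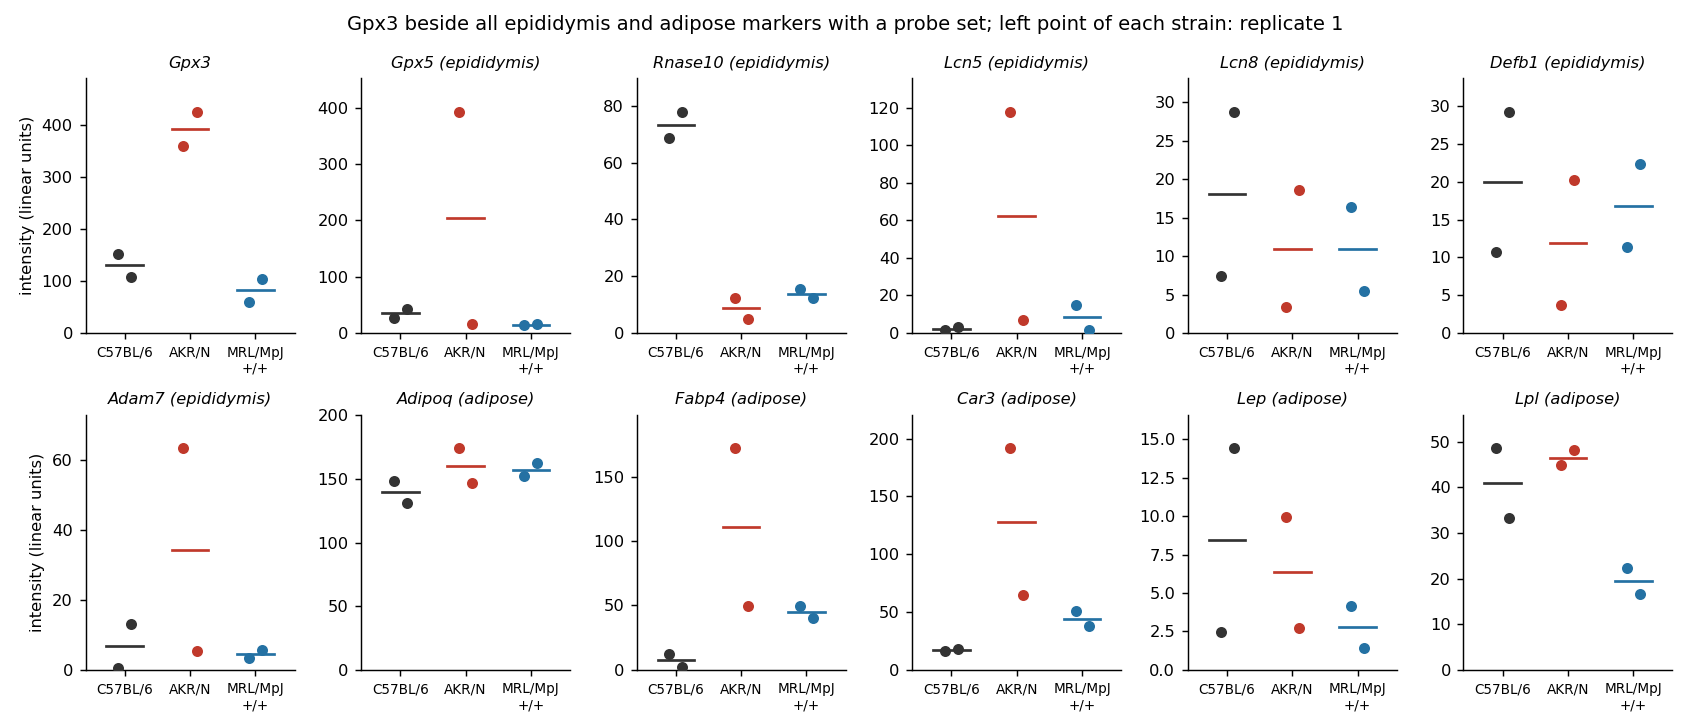
Linear intensity of Gpx3 on each array, followed by the 6 epididymis markers (Gpx5, Rnase10, Lcn5, Lcn8, Defb1, Adam7) and the 5 adipose markers (Adipoq, Fabp4, Car3, Lep, Lpl) with a probe set, with the left point of each strain for replicate 1 and bars for strain means. Gpx3 is high on both AKR/N arrays (359 and 425 units); Gpx5, Lcn5 and Adam7 are high on AKR/N replicate 1, Rnase10 is high in C57BL/6, and Lcn8 and Defb1 are lowest on AKR/N replicate 1.

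Gpx4, which reduces lipid peroxides in membranes and forms part of the sperm midpiece, was nearly level. Its brighter probe set lay between 5162 and 5837 units on the 6 arrays, a ratio of 1.13 from highest to lowest. The mean was 5743 ± 133 units in C57BL/6, 5354 ± 271 in MRL/MpJ+/+ and 5580 ± 216 in AKR/N (SD, n = 2), and the largest difference between strains was -0.10 (SE 0.0597). The second probe set gave -0.15 (SE 0.0799) for the same pair. After quantile normalization the difference between MRL/MpJ+/+ and C57BL/6 was 0.01, so no direction is given.

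Prdx3, the peroxiredoxin of mitochondria, was at 211 and 238 units in C57BL/6, 241 and 207 in AKR/N and 216 and 215 in MRL/MpJ+/+. All strains overlapped, and AKR/N and MRL/MpJ+/+ differed from C57BL/6 by -0.00027 and -0.05 (SE 0.11). Prdx4, the peroxiredoxin of the endoplasmic reticulum, lay between 1570 and 1724 units on its brightest probe set. There both AKR/N arrays, at 1724 and 1718, were above all others, by 0.08 over C57BL/6 (SE 0.0619). On the probe set 1416166_a_at AKR/N was also highest, at 533 and 550 units against 472 and 379 in C57BL/6 and 473 and 446 in MRL/MpJ+/+, a difference of 0.34 (SE 0.103) from C57BL/6. The third tested probe set, at 173 to 197 units, had overlapping strains and a difference of 0.02. None of these Prdx4 differences was called.

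Txnrd2, the thioredoxin reductase of mitochondria, was dim. Its brighter tested probe set lay between 23.2 and 35.8 units, close to the filter's limit of 17.8 to 20.8, and the other between 18.4 and 29.8, while 2 more failed the filter. The pair correlated at -0.63 over the 6 arrays, so no strain pattern could be read from this gene at this signal. Txnrd3 was bright on all 3 of its probe sets, at 1590 to 1713, 1946 to 2274 and 2497 to 3003 units, each with overlapping strains in all comparisons. On the brightest, AKR/N and MRL/MpJ+/+ differed from C57BL/6 by -0.06 and -0.02 (SE 0.0873 each).

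Cat, catalase, which breaks down peroxide in peroxisomes, stood at 78.2 and 58.3 units in C57BL/6, 90.9 and 85.5 in AKR/N and 74.1 and 45.8 in MRL/MpJ+/+. Both AKR/N arrays were above the others, but the spread within C57BL/6 and within MRL/MpJ+/+ was wider than the gap, and the differences of AKR/N from C57BL/6, 0.32, and of MRL/MpJ+/+ from AKR/N, -0.48 (SE 0.197 each), were not called. The first was 0.49 or 0.15 without C57BL/6 replicate 1 or 2, and the second -0.75 or -0.21 without MRL/MpJ+/+ replicate 1 or 2. The second Cat probe set, at 61.0 to 80.3 units, overlapped in all comparisons and had a difference of 0.09 (SE 0.157) between AKR/N and C57BL/6.

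**Figure D4:**
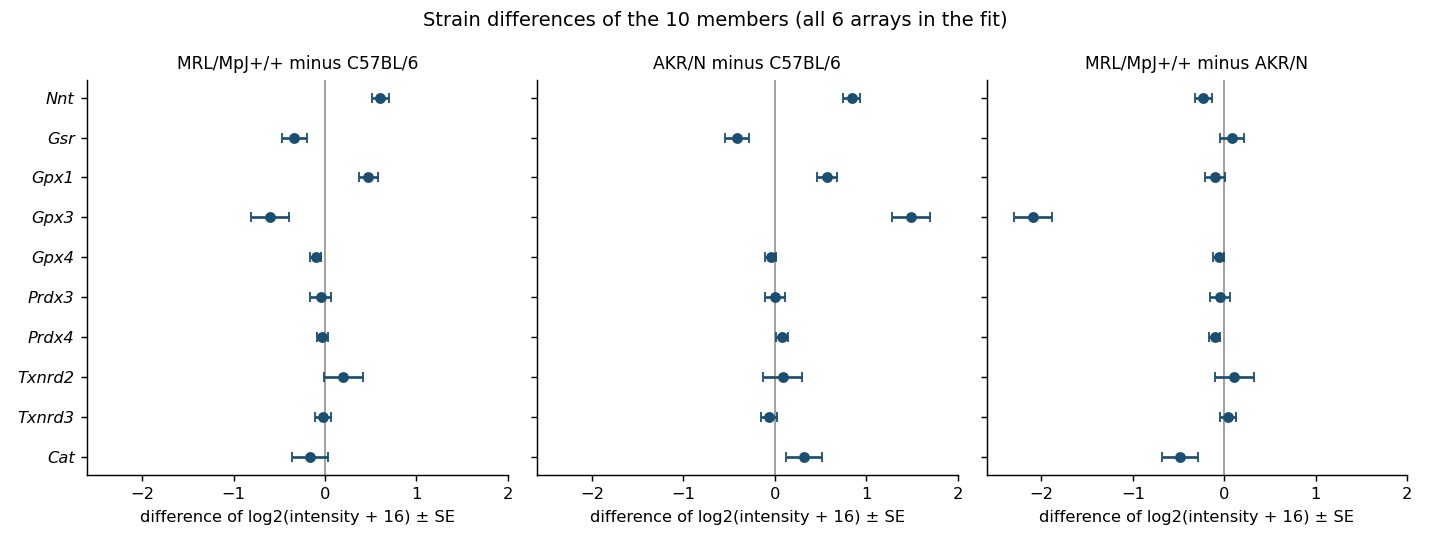
Difference of log2(intensity + 16) between strains (horizontal axes) for each of the 10 genes, with bars of 1 SE from the fit to all 6 arrays. Gpx3 lies at 1.49 in AKR/N minus C57BL/6 and at -2.10 in MRL/MpJ+/+ minus AKR/N, Nnt and Gpx1 lie right of 0 in both comparisons with C57BL/6, and Gpx4, Prdx3, Prdx4 and Txnrd3 stay within 0.11 of it throughout.

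A difference was called where limma's p, Benjamini-Hochberg adjusted over all tested probe sets, was under 0.05. Of the 10 genes, 2 were called higher and 0 lower in MRL/MpJ+/+ against C57BL/6, where 12.2% of all 14477 tested genes were called and 6.09% were called higher. In AKR/N against C57BL/6, 3 were called higher and 0 lower, with 11.9% of all genes called and 6.38% higher, and in MRL/MpJ+/+ against AKR/N 0 higher and 1 lower, with 8.74% called and 5.06% lower. The first pair of comparisons share the C57BL/6 arrays. Arrays did not overlap for 5, 6 and 4 of the 10 genes, against 55.6%, 54.7% and 54.6% of all genes. Both C57BL/6 arrays lay below the 4 others in 15.9% of all genes, as they did for Nnt and Gpx1. Since these comparisons chose the genes, nothing is read from the counts. Over the 6 arrays, the median range of the 10 genes was 0.52 on the log2 scale and that of all tested genes 0.51.

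The other genes of peroxide defence were followed in 10 lists of 120 genes, drawn up by family and function, of which 106 had a probe set with 1 symbol and 101 were tested. In MRL/MpJ+/+ against C57BL/6, 17 rose and 7 fell, with a median difference of 0.07 against 0.01 over all tested genes. In AKR/N against C57BL/6, 17 rose and 7 fell, with a median of 0.13 against 0.01. These are 23.8% of the tested listed genes in each, beside 12.2% and 11.9% of all genes. Both comparisons share the C57BL/6 arrays, and the lists were drawn up with earlier results of these data known. The shares are therefore a description. Between MRL/MpJ+/+ and AKR/N, 3 rose and 4 fell, 6.93% of those tested against 8.74% of all genes, with a median of -0.01. Single arrays moved these counts. The 24 of MRL/MpJ+/+ against C57BL/6 became 12 when C57BL/6 replicate 2 was left out, and 9 or 10 when MRL/MpJ+/+ replicate 1 or 2 was. The 24 of AKR/N became 11 when C57BL/6 replicate 2 or either AKR/N array was left out. The 7 between MRL/MpJ+/+ and AKR/N became 2 when AKR/N replicate 1 was left out, and 4 or 2 when MRL/MpJ+/+ replicate 1 or 2 was. The p-values below are limma's, adjusted over all 29692 tested probe sets.

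**Figure D5:**
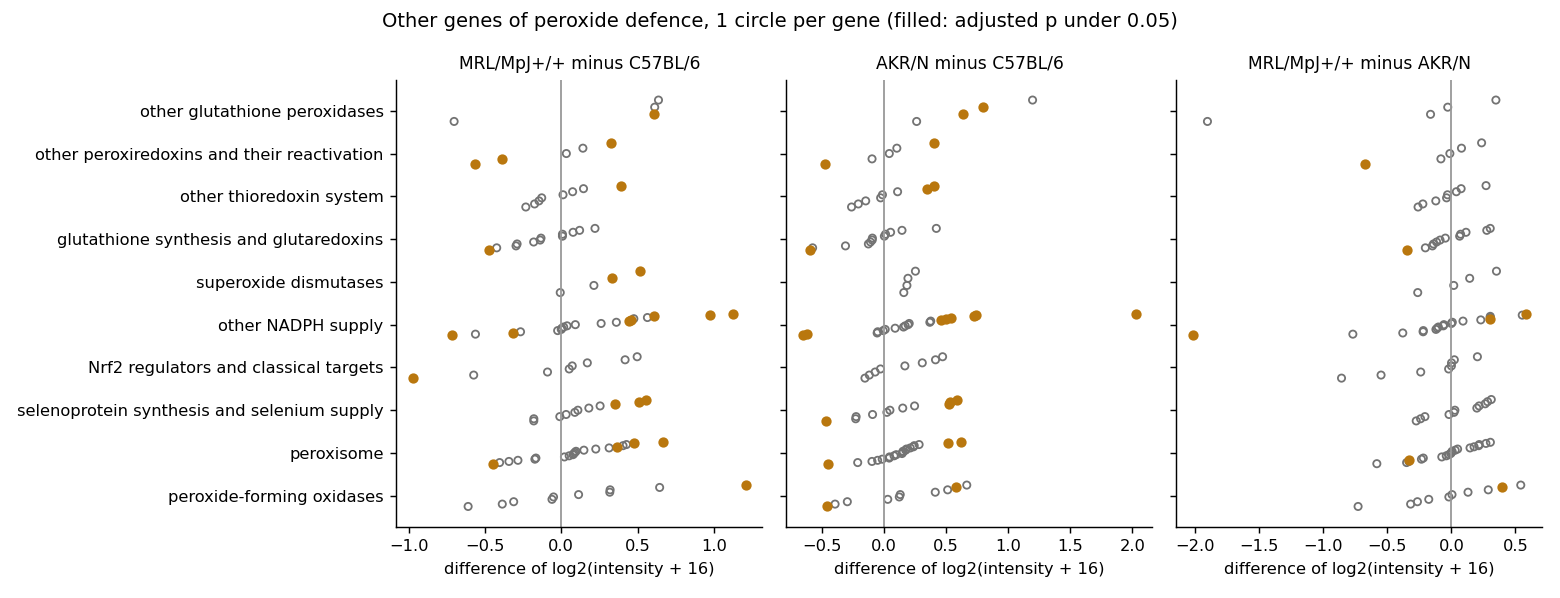
Difference of log2(intensity + 16) between strains (horizontal axes) for the tested genes of the 10 lists (rows), with 1 circle per gene, filled where the adjusted p was under 0.05. Filled circles are most numerous in the list of other NADPH supply, with 7 of 19 in MRL/MpJ+/+ and 8 of 19 in AKR/N against C57BL/6, and lie on both sides of 0.

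Of the 19 tested genes listed under NADPH supply by other routes than Nnt, 5 rose and 2 fell in MRL/MpJ+/+ against C57BL/6. In AKR/N against C57BL/6, 6 rose and 2 fell. Some listed enzymes, such as Mthfd1l and Pgls, belong to these routes but do not themselves make NADPH. Mthfd2l, a mitochondrial folate dehydrogenase, stood at 128.5 and 128.7 units in C57BL/6, 238 and 215 in AKR/N and 293 and 245 in MRL/MpJ+/+. It rose by 0.75 in AKR/N (adjusted p = 0.0022) and by 0.97 in MRL/MpJ+/+ (adjusted p = 0.000372), where its probe sets averaged 0.48. Idh1, the cytosolic NADP-dependent isocitrate dehydrogenase, stood at 288 and 372 units in C57BL/6, 547 and 561 in AKR/N and 461 and 560 in MRL/MpJ+/+, and rose by 0.73 in AKR/N (adjusted p = 0.00421), with a probe set mean of 0.462.

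Me1 and Me3, the cytosolic and mitochondrial NADP-dependent malic enzymes, ran in opposite directions. Me1 stood at 1756 and 1767 units in C57BL/6, 1937 and 2001 in AKR/N and 2368 and 2488 in MRL/MpJ+/+, where it rose by 0.46 against C57BL/6 (adjusted p = 0.00094) and by 0.30 against AKR/N (adjusted p = 0.0158), where its probe sets averaged 0.585. Me3 stood at 147 and 169 units in C57BL/6, 89.5 and 99.6 in AKR/N and 82.8 and 97.2 in MRL/MpJ+/+, and fell by 0.71 in the latter (adjusted p = 0.00727). Aldh1l1, a cytosolic folate enzyme that makes NADPH, rose by 1.12 in MRL/MpJ+/+ against C57BL/6 (adjusted p = 0.000845) and by 0.58 against AKR/N (adjusted p = 0.0421). Pgls, the lactonase of the pentose phosphate pathway, fell by 0.62 in AKR/N (adjusted p = 0.0014). In the same pathway Pgd rose by 0.50 in AKR/N and by 0.44 in MRL/MpJ+/+ against C57BL/6 (adjusted p = 0.00735 and 0.0139). Tkt rose by 0.46 in AKR/N (adjusted p = 0.0407), where its probe sets averaged 0.163. Me3 and Aldh1l1 were also called in AKR/N against C57BL/6, at -0.65 and 0.54 (adjusted p = 0.0119 and 0.0427). Idh1 and Pgls were also called in MRL/MpJ+/+ against C57BL/6, at 0.61 and -0.32 (adjusted p = 0.0111 and 0.04665).

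Mthfd1l, a mitochondrial formyltetrahydrofolate synthetase, stood at 157 and 154 units in AKR/N, 22.04 and 30.65 in C57BL/6 and 35.6 and 19.2 in MRL/MpJ+/+. AKR/N exceeded C57BL/6 by 2.03 (adjusted p = 0.000147), and MRL/MpJ+/+ was lower than AKR/N (-2.01, adjusted p = 0.000235). The call of Me3 in MRL/MpJ+/+ against C57BL/6 was lost without C57BL/6 replicate 2 and without MRL/MpJ+/+ replicate 1. In MRL/MpJ+/+ against AKR/N, that of Me1 was lost without AKR/N replicate 1, AKR/N replicate 2 or MRL/MpJ+/+ replicate 2. That of Aldh1l1 was lost there without AKR/N replicate 1 or either MRL/MpJ+/+ array, with 0.38 left without AKR/N replicate 1.

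Among the other glutathione peroxidases, Gpx6 rose in both strains against C57BL/6. It stood at 186 and 215 units in C57BL/6, 328 and 311 in AKR/N and 308 and 318 in MRL/MpJ+/+, differences of 0.64 (adjusted p = 0.00259) and 0.61 (adjusted p = 0.00333). Of the 4 tested genes of this list 1 rose in MRL/MpJ+/+ and 2 in AKR/N, and none fell. The second, Gpx7, a peroxidase of the endoplasmic reticulum, was dim, at 32.7 and 33.5 units in AKR/N and 12.5 and 11.9 in C57BL/6. Both C57BL/6 values were below their arrays' 40th percentiles, so Gpx7 passed the filter only through the other strains and no size is given. Its call was lost without any 1 of the 6 arrays (adjusted p up to 0.215). Between MRL/MpJ+/+ and AKR/N none of the 4 was called, Gpx6 at -0.03 and Gpx5 at -1.90 (adjusted p = 0.926 and 0.22), and 1 had an unadjusted p under 0.05.

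Peroxiredoxins and the proteins that reactivate them had 5 tested genes. In MRL/MpJ+/+ against C57BL/6, 1 rose and 2 fell, in AKR/N 1 rose and 1 fell, and in MRL/MpJ+/+ against AKR/N 1 fell. Prdx2, a cytosolic peroxiredoxin, depended on the probe set. On the brighter, 1418506_a_at, it stood at 419 and 419 units in C57BL/6, 559 and 563 in AKR/N and 540 and 519 in MRL/MpJ+/+, rises of 0.41 and 0.33 (adjusted p = 0.00737 and 0.0226). On 1430979_a_at it stood at 126 and 149 units in C57BL/6, 13.4 and 12.6 in AKR/N and 21.4 and 17.9 in MRL/MpJ+/+, the opposite direction. AKR/N lay below the 40th percentile of its arrays there and MRL/MpJ+/+ close to it, so no size is given. The mean of its probe sets differed by -0.997 and -0.889, but it includes this dim probe set, so its size is not read either.

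Srxn1, the sulfiredoxin that repairs overoxidised peroxiredoxins, stood at 160 and 166 units in MRL/MpJ+/+, 236 and 262 in C57BL/6 and 264 and 273 in AKR/N. It fell by 0.57 against C57BL/6 (adjusted p = 0.00492) and by 0.67 against AKR/N (adjusted p = 0.00281), while the mean of its 3 tested probe sets differed by -0.13 and -0.39 and was not called. Sesn3, a sestrin, fell by 0.39 in MRL/MpJ+/+ and by 0.47 in AKR/N against C57BL/6 (adjusted p = 0.0174 and 0.00667). The means over its probe sets, -0.22 and -0.23, were not called (adjusted p = 0.225 and 0.209). Without single arrays, the rise of Prdx2 in MRL/MpJ+/+ (each array of MRL/MpJ+/+ and C57BL/6, adjusted p up to 0.141) and in AKR/N (each AKR/N array, up to 0.0615) missed the threshold. So did the fall of Sesn3 in MRL/MpJ+/+ (C57BL/6 replicate 2 and each MRL/MpJ+/+ array, up to 0.111) and in AKR/N (AKR/N replicate 2, 0.0575).

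In the other thioredoxin system 1 of 8 tested genes rose in MRL/MpJ+/+ and 2 in AKR/N against C57BL/6, and none was called between MRL/MpJ+/+ and AKR/N, where limma's unadjusted p was under 0.05 for 3. Txn1, cytosolic thioredoxin, stood at 259 and 291 units in C57BL/6, 343 and 366 in AKR/N and 360 and 370 in MRL/MpJ+/+, rises of 0.35 and 0.39 (adjusted p = 0.0393 and 0.0244). Its other probe set, at 18.0 to 74.8 units, differed by -0.25 and 0.06, and the means of both, 0.048 and 0.223, were not called. Nme8, a thioredoxin-domain protein of cilia and flagella, stood at 563 and 502 units in C57BL/6 and 753 and 668 in AKR/N, a rise of 0.40 (adjusted p = 0.0168). The sperm thioredoxins Txndc2 and Txndc8 of MRL/MpJ+/+ differed from those of AKR/N by -0.03 and -0.22 (adjusted p = 0.898 and 0.075). The call of Txn1 was lost in MRL/MpJ+/+ without C57BL/6 replicate 1 or either MRL/MpJ+/+ array (up to 0.129), and in AKR/N without any array but C57BL/6 replicate 2 (up to 0.219). That of Nme8 was lost without AKR/N replicate 1 or C57BL/6 replicate 2 (up to 0.15).

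Of 12 tested genes of glutathione synthesis and glutaredoxins, 1 fell in each comparison and none rose. In AKR/N against C57BL/6 it was Gclc, the catalytic subunit of the rate-limiting enzyme, at 145 and 176 units against 235 and 265 (-0.59, adjusted p = 0.0115, and up to 0.102 without AKR/N replicate 1 or C57BL/6 replicate 2). In both comparisons of MRL/MpJ+/+ it was Glrx2, a mitochondrial glutaredoxin with a testis form, at 866 and 856 units in MRL/MpJ+/+, 1223 and 1180 in C57BL/6 and 1122 and 1081 in AKR/N. It fell by 0.47 against C57BL/6 (adjusted p = 0.0014) and by 0.35 against AKR/N (adjusted p = 0.0116, and up to 0.0987 without any 1 of the arrays of these strains).

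Both superoxide dismutases that rose did so in MRL/MpJ+/+ against C57BL/6, out of 4 tested genes of which none fell. Sod2, the mitochondrial enzyme that turns superoxide into peroxide, stood at 1238 and 1172 units in C57BL/6, 1280 and 1473 in AKR/N and 1453 and 1585 in MRL/MpJ+/+ (0.33, adjusted p = 0.0295). Sod3, the secreted enzyme, stood at 114 and 130 units in C57BL/6 and 208 and 157 in MRL/MpJ+/+ (0.51, adjusted p = 0.0441). In AKR/N, Sod1 and Sod2 differed from C57BL/6 by 0.26 and 0.19 (adjusted p = 0.0962 and 0.2), and between MRL/MpJ+/+ and AKR/N by -0.26 and 0.14 (adjusted p = 0.107 and 0.382). None of the 4 was called in these comparisons by limma, and 2 had an unadjusted p under 0.05 in each. Sod2 was not called without any 1 of the C57BL/6 or MRL/MpJ+/+ arrays (up to 0.178), nor Sod3 without any array but MRL/MpJ+/+ replicate 2 (up to 0.293, with 0.33 left without MRL/MpJ+/+ replicate 1).

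Gpx1, Gpx3, Gpx4 and the thioredoxin reductases carry selenocysteine, so the genes that make selenoproteins were listed too. Of 11 tested, 3 rose in MRL/MpJ+/+ and none fell, and in AKR/N 3 rose and 1 fell, all against C57BL/6. Scly, selenocysteine lyase, stood at 81.8 and 85.0 units in C57BL/6, 130 and 126 in AKR/N and 127 and 133 in MRL/MpJ+/+ (0.53 and 0.55, adjusted p = 0.0167 and 0.0139), although in AKR/N its probe sets averaged 0.281 and were not called (adjusted p = 0.185). Selenop, the plasma carrier of selenium, stood at 839 and 814 units in C57BL/6, 1106 and 877 in AKR/N and 1303 and 1079 in MRL/MpJ+/+, where it rose by 0.51 (adjusted p = 0.017). Sephs2, selenophosphate synthetase, rose on its brightest probe set by 0.59 in AKR/N and 0.35 in MRL/MpJ+/+ (adjusted p = 0.00158 and 0.0267), but 1435602_at fell by 1.02 and by 0.61 (adjusted p = 1.84e-05 and 0.0007), and the mean over its 3 probe sets was 0.01 and 0.08.

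In AKR/N, Eefsec, the elongation factor for selenocysteine, fell by 0.46 and Secisbp2l rose by 0.53 (adjusted p = 0.0304 and 0.0497), the latter 0.292 and not called as a probe set mean (adjusted p = 0.342). Between MRL/MpJ+/+ and AKR/N limma called none of the 11, and 3 had an unadjusted p under 0.05. There Sephs2 differed by -0.24 and Selenop by 0.26 (adjusted p = 0.138 and 0.222). Calls against C57BL/6 lost without single arrays were, in MRL/MpJ+/+, those of Scly (C57BL/6 replicate 1 and both MRL/MpJ+/+ arrays, up to 0.0932), Selenop (both C57BL/6 arrays and MRL/MpJ+/+ replicate 1, up to 0.137) and Sephs2 (C57BL/6 replicate 2 and MRL/MpJ+/+ replicate 2, up to 0.174). In AKR/N they were those of Scly (each array of AKR/N and C57BL/6, up to 0.106), Eefsec (AKR/N replicate 2 and C57BL/6 replicate 2, up to 0.212) and Secisbp2l (any array, up to 0.321).

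Of 20 tested peroxisome genes, the surroundings of catalase, 3 rose and 1 fell in MRL/MpJ+/+ against C57BL/6, 2 rose and 1 fell in AKR/N, and 1 fell between MRL/MpJ+/+ and AKR/N. Pxmp2, a channel of the peroxisomal membrane, stood at 55.6 and 58.4 units in C57BL/6, 97.8 and 94.4 in AKR/N and 104 and 96.0 in MRL/MpJ+/+ (0.62 and 0.67, adjusted p = 0.0145 and 0.00974). Hsd17b4, an enzyme of peroxisomal fatty acid oxidation, rose by 0.51 and 0.47 (adjusted p = 0.0121 and 0.0178), or 0.33 in AKR/N as a probe set mean. Pex16, which helps build the membrane, fell by 0.45 in each (adjusted p = 0.0159 and 0.0164). In MRL/MpJ+/+ the mean of its probe sets was -0.41 and not called (adjusted p = 0.095). Pex19 rose by 0.36 in MRL/MpJ+/+ (adjusted p = 0.044), but the mean of its 3 probe sets was 0.108 and not called (adjusted p = 0.583). Pex3 fell by 0.33 in MRL/MpJ+/+ against AKR/N (adjusted p = 0.0208) but its probe sets averaged 0.04.

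Of these peroxisome calls, that of Pex19 was lost without any 1 of the 6 arrays (adjusted p up to 0.185) and that of Pex3 without any 1 of the MRL/MpJ+/+ and AKR/N arrays (up to 0.166). In MRL/MpJ+/+ against C57BL/6, Hsd17b4 and Pex16 missed the threshold without C57BL/6 replicate 2 or either MRL/MpJ+/+ array (up to 0.13 and 0.111) and Pxmp2 without MRL/MpJ+/+ replicate 1 (0.081). In AKR/N, Pex16 missed it without either AKR/N array or C57BL/6 replicate 2 (up to 0.11), Hsd17b4 without AKR/N replicate 2 or C57BL/6 replicate 2 (up to 0.116) and Pxmp2 without either AKR/N array (up to 0.0972).

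Among 10 tested oxidases that form superoxide or peroxide, 1 rose in MRL/MpJ+/+ against C57BL/6, 1 rose and 1 fell in AKR/N, and 1 rose between MRL/MpJ+/+ and AKR/N. Ero1b and Ero1a, the thiol oxidases of the endoplasmic reticulum whose peroxide Prdx4 removes, ran in opposite directions in AKR/N on their brightest probe sets. Ero1b stood at 746 and 900 units in AKR/N, 1110 and 1157 in C57BL/6 and 1070 and 1101 in MRL/MpJ+/+ (-0.46 against C57BL/6, adjusted p = 0.0083; 0.40 for MRL/MpJ+/+ against AKR/N, adjusted p = 0.0233). Another bright Ero1b probe set, 1425705_a_at, stood at 873 and 759 units in AKR/N and 894 and 767 in C57BL/6. It differed by -0.02 in both comparisons (adjusted p = 0.915 and 0.944), while the dim 1449948_at ran the same way as the brightest. Ero1a rose by 0.58 in AKR/N (adjusted p = 0.0125), but the mean of its 3 probe sets was 0.339 and not called (adjusted p = 0.0974). Ncf4, a subunit of the phagocyte NADPH oxidase, was dim, at 29.4 and 33.7 units in MRL/MpJ+/+ and 3.92 and 5.17 in C57BL/6. The C57BL/6 values were far below their arrays' 40th percentiles and Ncf4 passed the filter through MRL/MpJ+/+, so no size is given. Macrophage markers, summed, were 787 to 796 units in MRL/MpJ+/+ and 796 to 835 in C57BL/6. Their part in the Ncf4 difference was not tested.

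Calls of these oxidases were lost without AKR/N replicate 1 or C57BL/6 replicate 2 for Ero1b in AKR/N (up to 0.0759), without either AKR/N array or C57BL/6 replicate 2 for Ero1a (up to 0.0989) and without either MRL/MpJ+/+ array for Ncf4 (up to 0.12). Between MRL/MpJ+/+ and AKR/N, Ero1b was lost without AKR/N replicate 1 or either MRL/MpJ+/+ array (up to 0.174). Of 8 tested regulators and classical targets of Nrf2, the transcription factor that raises many antioxidant genes, 1 fell in MRL/MpJ+/+ against C57BL/6 and limma called none in AKR/N against C57BL/6 or in MRL/MpJ+/+ against AKR/N, with 2 and 3 at an unadjusted p under 0.05. The 1 was Mafg, a small Maf partner of Nrf2, at 19.26 and 9.004 units in MRL/MpJ+/+ against 43.4 and 41.0 in C57BL/6 (-0.97, adjusted p = 0.0288, with -1.60 at a pseudocount of 1 and -0.45 at 64, and up to 0.162 without either C57BL/6 array or MRL/MpJ+/+ replicate 2). As the mean of its probe sets Mafg differed by -0.69 there and was not called (adjusted p = 0.075). Nfe2l2, which encodes Nrf2, and its repressor Keap1 differed by 0.31 and -0.15 in AKR/N against C57BL/6 (adjusted p = 0.127 and 0.337), and by -0.24 and 0.20 in MRL/MpJ+/+ against AKR/N (adjusted p = 0.283 and 0.222).

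Cell type markers moved between the strains as well. The Leydig cell list had 4 of 6 tested genes higher and none lower in each strain against C57BL/6. They were not the same 4, since Cyp11a1 was called only in AKR/N and Hsd3b1 only in MRL/MpJ+/+. The sum of the list was 3422 to 3553 units in C57BL/6, 5591 to 6092 in AKR/N and 5663 to 5839 in MRL/MpJ+/+, the side on which Nnt and Gpx1 were higher too. Round spermatid markers had 5 of 8 lower in MRL/MpJ+/+ against C57BL/6, with sums of 9795 to 10040 units against 11440 to 12760, and spermatocyte markers 3 of 8 lower in AKR/N, with sums of 8656 to 9380 against 10110 to 10530. Between MRL/MpJ+/+ and AKR/N, where Gpx3 differed most, 7 of 8 spermatocyte markers were higher, 6 of 8 round spermatid markers lower and 2 of 9 Sertoli markers lower in MRL/MpJ+/+. Their part in the values of the 10 genes was not tested. Germ cell markers that define testis were bright on all arrays, with Prm1 at 7370 to 8906 units, Acrv1, of round spermatids, at 1643 to 2267 and Sycp3, of spermatocytes, at 1360 to 2112.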

How the data were processed

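Testis RNA of 6 mice was labelled with biotin after one-cycle cDNA synthesis and hybridised to mouse expression arrays, per the labels' protocols. The authors deposited linear intensity values per probe set; the sources used here do not name the summary software, detection calls or scan dates. Of 45101 probe sets, 64 controls were left out. Intensities were used as deposited, as log2(intensity + 16). Probe sets were tested where at least 2 of the 6 arrays exceeded their array's 40th percentile. Strains were compared with limma 3.58.1 in R 4.3.3, in one fit with a variance trend over 6 arrays, with Benjamini-Hochberg adjustment. The fit was also run on data simulated under its own model, which cannot check whether that model holds for these arrays. P-values set a difference against an estimate of the spread between mice of a strain, of which there were 2 each. They speak for these samples only. Much of each probe set's variance estimate is borrowed from other probe sets (7.581 prior against 3 residual degrees of freedom). The number of arrays limits the precision.

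Each gene was represented by its tested probe set of highest mean intensity. The 10 genes, the lists and the markers were chosen with earlier results of these data known. The text names up to 4 called genes from each list and comparison, taken by smallest adjusted p. It adds further calls of Idh1, Me3, Aldh1l1 and Pgls, and those of Pgd and Tkt. Where a list had no called gene it names the 2 brightest. In addition it names the 5 genes most correlated with Nnt and its 2 nearest tested neighbours on each side. Of the listed genes, 14 have no probe set of a single symbol and are not analysed here, and 5 were not tested. Replicate numbers were not taken to pair mice, since deviations of same-numbered arrays correlated at only 0.043 to 0.049. Alternatives were pseudocounts of 1 and 64, filters, scaling, variance trend, averaged probe sets, a replicate block, fits on the compared strains alone and single arrays left out.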

Additional observations from a re-analysis of the deposited data

How the results depend on the processing

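Without the variance trend limma called fewer: 1212, 1138 and 421 probe sets in MRL/MpJ+/+ against C57BL/6, AKR/N against C57BL/6 and MRL/MpJ+/+ against AKR/N (2975, 2960 and 2052 with it), 7, 6 and 1 related genes (24, 24 and 7 with it), and 0 of the 10 genes in the first comparison, where the calls of Nnt and Gpx1 were lost, while that of Gpx1 was also lost in AKR/N against C57BL/6; the cause was not tested. With no filter on dim signal, 1327 probe sets were called in MRL/MpJ+/+ against AKR/N, where more probe sets are tested. Leaving out 1 array gave 1483 to 2545, 1290 to 2607 and 694 to 2191 probe sets, 9 to 21, 11 to 20 and 2 to 9 related genes, and 1 to 2, 2 to 3 and 1 of the 10 genes. As the mean of probe sets, Prdx2 reversed to -0.889 in MRL/MpJ+/+ and -0.997 in AKR/N against C57BL/6, because its other probe set runs the opposite way. That probe set is dim in both strains, so these sizes are not read. Pex3 reversed to 0.042 in MRL/MpJ+/+ against AKR/N. With the replicate number as a block, 3510, 3492 and 2549 probe sets and 25, 25 and 10 related genes were called, with 2, 3 and 1 of the 10 genes; Gpx7 in AKR/N was lost (adjusted p = 0.054). The pseudocount sets the size of low genes: Mthfd1l in AKR/N against C57BL/6 was 2.54 at 1 and 1.29 at 64 (2.03 at 16). With 2 arrays per strain and dim Txnrd2, Gpx7, Mafg and Ncf4, signal limits what can be compared.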
